A study of Homo sapiens with 8 samples.

Results

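CXCL1, CXCL2, CXCL3, CXCL5, CXCL6 and CXCL8 are chemokine genes whose secreted products bind the receptor CXCR2. They are 6 of the 20263 genes in the expression table and were chosen by name, with their response in these libraries already known. Expression was measured by mRNA sequencing in PANC-1, an established human line grown from a ductal tumor of the pancreas. Cells received 10 μM eupalinolide B (EB), a compound from the plant Eupatorium lindleyanum, or the vehicle DMSO, for 24 h, and each group had 4 libraries. The methods describe these as biological replicates but also speak of triplicates, and all 8 libraries were used. The table heads its columns C or H with a number. C was taken to stand for the DMSO control and H for EB, the remaining group, and every direction below rests on that reading. The values are TPM, length-corrected transcript abundances that add up to a fixed total in every library, so levels of different genes can be compared.

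The CXCR2 ligands are small secreted proteins that draw neutrophils out of the blood and into tissue. CXCR1 is a second receptor, used mainly by CXCL8 (interleukin 8) and CXCL6. In epithelial and tumor cells the genes are best known as rapid targets of interleukin 1, TNF and interleukin 17, through NF-κB and AP-1 binding to their promoters and through control of messenger RNA decay.

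In the EB libraries 5 of the genes were lower and CXCL8 was higher. CXCL3 had the largest difference, from a mean of 6.59 to 0.536 TPM, and CXCL1, the most abundant, went from 248.9 to 114.8 TPM. CXCL8 went the other way, from 36.0 to 61.9 TPM. These values chose the genes, so they are given as a description with no test of their own. In RNA from whole cultures, fewer cells of a type and less RNA per cell cannot be told apart.

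The 6 genes lie in 1 cluster on chromosome 4, in the hg38 annotation of GENCODE, at chr4:73740519-74099196, a span of 358678 bases. CXCL8, CXCL6 and CXCL1 are on the plus strand, and CXCL5, CXCL3 and CXCL2 on the minus strand. The 150 bases before each RefSeq start site (GRCh38.p14) are shown because all 6 genes, whichever way they moved, hold the same NF-κB letters there. Capitals mark the NF-κB match GGAATTTCC and, in CXCL8, an AP-1 match TGACTCA.
CXCL1 (chr4:73869243-73869392, plus strand): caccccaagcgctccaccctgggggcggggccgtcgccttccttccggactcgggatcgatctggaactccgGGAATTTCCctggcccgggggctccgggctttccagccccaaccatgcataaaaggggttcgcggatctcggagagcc
CXCL2 (chr4:74099196-74099345, minus strand): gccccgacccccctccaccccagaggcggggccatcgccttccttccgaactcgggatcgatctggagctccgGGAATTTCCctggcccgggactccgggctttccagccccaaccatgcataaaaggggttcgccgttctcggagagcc
CXCL3 (chr4:74038690-74038839, minus strand): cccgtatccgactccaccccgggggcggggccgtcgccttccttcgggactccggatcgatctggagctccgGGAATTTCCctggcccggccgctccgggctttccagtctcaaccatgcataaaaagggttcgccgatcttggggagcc
CXCL5 (chr4:73998678-73998827, minus strand): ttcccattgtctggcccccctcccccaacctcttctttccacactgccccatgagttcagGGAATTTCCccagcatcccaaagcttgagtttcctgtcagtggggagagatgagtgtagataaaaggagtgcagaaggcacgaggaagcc
CXCL6 (chr4:73836528-73836677, plus strand): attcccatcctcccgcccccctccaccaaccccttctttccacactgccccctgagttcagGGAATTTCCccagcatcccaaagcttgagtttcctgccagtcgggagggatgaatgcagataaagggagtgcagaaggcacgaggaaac
CXCL8 (chr4:73740419-73740568, plus strand): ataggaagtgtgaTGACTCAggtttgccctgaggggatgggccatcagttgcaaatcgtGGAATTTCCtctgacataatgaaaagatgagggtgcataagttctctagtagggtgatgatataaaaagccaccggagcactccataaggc

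The NF-κB match began 77 to 78 bases before the start site in CXCL1, CXCL2 and CXCL3 and 89 to 91 bases before it in CXCL5, CXCL6 and CXCL8, each time on the strand of the gene. A G stands just before it in 5 promoters and not in that of CXCL8. Motifs were searched on both strands of 300 bases, from 250 before to 50 after the start site, and the letters were chosen with these promoters already seen. GGAATTTCC was present in 129 of 27305 RefSeq promoters (0.472%). Of the tested genes outside the cluster's 6, 38 held it. Their median log2 fold change was −0.17, against −0.11 over all genes, 15 of them (39.5%) were lower with EB and 3 (7.89%) higher, against 25.1% and 15.2% of all genes tested.

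The CXCL8 promoter held 2 exact matches that the other 5 lacked. It alone of the 6 held the AP-1 letters TGANTCA, at 137 to 131 bases before the start, a match found in 7.76% of all promoters. It alone held TATAAA, at 31 to 26 bases before the start (12% of promoters). The printed stretches of CXCL1, CXCL2 and CXCL3 hold CATAAA, and those of CXCL5 and CXCL6 GATAAA, which the search did not count. The 374 other tested genes with the AP-1 letters had a median log2 fold change of −0.03, and 20.1% were lower and 19.8% higher, not far from the 25.1% and 15.2% of all genes tested.

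The remaining motifs split the genes differently. The GC box GGGCGG was found in CXCL1, CXCL3 and CXCL6 (44.6% of promoters), and the C/EBP letters TTGCNNAA in CXCL2 (10.6%). The printed stretch of CXCL8 holds TTGCAAAT, which differs from the C/EBP letters in the last place. No promoter of the 6 held the composite TGATGNAA (3.67%). The motifs do not overlap in these windows. A match is a description of letters and not evidence that a factor bound. Its absence is not evidence that a site is missing, because only exact letters were counted.

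**Figure D1:**
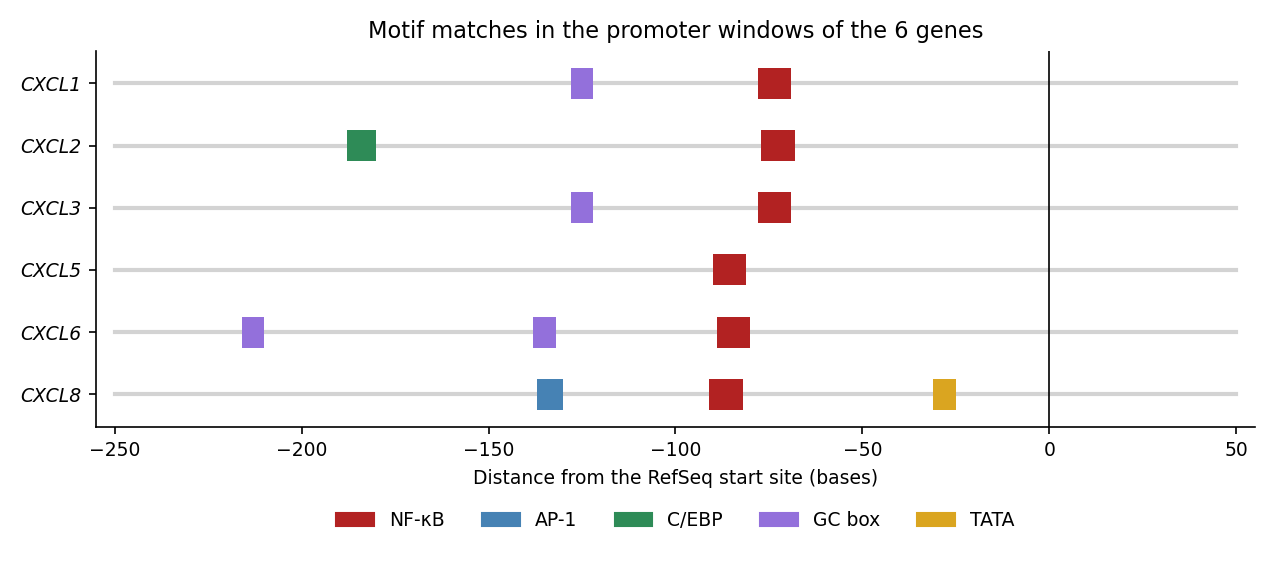
Positions of motif matches in the 300-base promoter windows of the 6 genes, with the distance from the RefSeq start site in bases on the horizontal axis and 1 line per gene. The NF-κB match (red) recurs 77 to 91 bases before the start in all 6, whereas the exact AP-1 (blue) and TATA (yellow) letters appear in CXCL8.

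By promoter sequence the genes formed pairs and a triplet. Over the 300 bases, identity was 82.5% between CXCL1 and CXCL3, 72.1% between CXCL1 and CXCL2 and 73.8% between CXCL2 and CXCL3. CXCL5 and CXCL6 were 83.1% identical. CXCL8 was 42.6% to 44.9% identical to the others. The base composition of the printed stretches followed the same grouping, with a GC content of 66.0% to 67.3% in CXCL1, CXCL2 and CXCL3, 54.0% and 56.7% in CXCL5 and CXCL6 and 46.0% in CXCL8.

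Paralogs this close can compete for reads when they are counted. CXCL1 and CXCL2 were 83.4% identical over the annotated transcripts, and CXCL2 and CXCL3 72.0%. The longest stretch shared without a mismatch was 97 bases between CXCL2 and CXCL3, 77 between CXCL1 and CXCL2, 55 between CXCL1 and CXCL3 and 45 between CXCL5 and CXCL6. Of all windows of 50 bases, 10.1% in CXCL2, 5.33% in CXCL1 and 5.26% in CXCL3 recurred in another of the genes, and none of 100 bases did. How shared reads were divided is not given in the sources used here, so the levels of CXCL2 and CXCL3, which are low beside CXCL1, are less certain than their sum with it.

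CXCL1 (ENSG00000163739, chr4:73869393-73871308), also called GROα, was the leading ligand in every library. Its TPM was 248.5, 264.0, 277.3 and 205.8 in DMSO libraries 1 to 4 and 115.8, 123.0, 113.0 and 107.3 in EB libraries 1 to 4. All EB libraries lay below all DMSO libraries. The means were 248.9 ± 31.0 (SD, n = 4) and 114.8 ± 6.51 TPM, 2.17-fold lower with EB, and the log2 fold change of TPM + 1 was −1.10 (SE 0.13).

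CXCL2 (ENSG00000081041, chr4:74097040-74099196), or GROβ, is a close relative of CXCL1 and lies at the end of the cluster opposite CXCL8. Its TPM was 7.20, 8.19, 5.05 and 4.95 in the DMSO libraries and 1.07, 1.95, 1.18 and 0.718 in the EB libraries. The groups did not overlap, although CXCL2 varied more among the DMSO libraries, for its level, than CXCL6 did. The mean went from 6.35 ± 1.61 to 1.23 ± 0.519 TPM (n = 4 each), 5.16-fold lower, with a log2 fold change of −1.72 (SE 0.20).

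CXCL3 (ENSG00000163734, chr4:74036589-74038807), or GROγ, had the deepest difference of the 6. Its TPM was 5.51, 7.68, 7.27 and 5.90 with DMSO and 0.716, 0.905, 0.167 and 0.357 with EB. Every EB library was below 1 TPM, the lowest level needed for the filter, and the gene passed it through the DMSO libraries. The mean was 6.59 ± 1.05 TPM with DMSO and 0.536 ± 0.335 with EB, 12.3-fold lower. The pseudocount compresses this to a log2 fold change of −2.32 (SE 0.18), and a pseudocount of 0.1 gave −3.56. Among all tested genes, 21 had a lower log2 fold change than CXCL3.

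CXCL5 (ENSG00000163735, chr4:73995642-73998677) encodes the epithelial neutrophil attractant ENA-78. It was measured at 23.0, 23.0, 19.9 and 17.6 TPM with DMSO and at 6.0, 5.67, 4.53 and 5.15 TPM with EB. The groups were far apart, with 17.6 TPM as the lowest DMSO value and 6.0 TPM as the highest EB value. The mean went from 20.9 ± 2.65 to 5.34 ± 0.642 TPM, 3.91-fold lower, and the log2 fold change was −1.78 (SE 0.14).

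CXCL6 (ENSG00000124875, chr4:73836640-73849064), or GCP-2, is the nearest relative of CXCL5 and binds both CXCR1 and CXCR2. Its TPM was 6.22, 5.29, 6.69 and 5.83 with DMSO and 1.20, 1.36, 1.61 and 1.02 with EB. Here too no EB library reached the lowest DMSO library. The mean was 6.01 ± 0.595 TPM with DMSO and 1.30 ± 0.251 TPM with EB, 4.64-fold lower, with a log2 fold change of −1.61 (SE 0.13).

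CXCL8 (ENSG00000169429, chr4:73740519-73743716) encodes interleukin 8, the ligand with high affinity for both receptors. Its TPM was 42.3, 34.7, 43.5 and 23.3 with DMSO and 75.9, 64.8, 63.7 and 43.1 with EB. Of the 6 genes it was the one whose groups overlapped, since EB 4 (43.1 TPM) was just below DMSO 3 (43.5 TPM). The mean was 36.0 ± 9.31 TPM with DMSO and 61.9 ± 13.7 with EB, a ratio of 1.72, and the log2 fold change was 0.78 (SE 0.23). This call was not kept in every setting, although leaving out DMSO 4, which moved the value most of any single library, kept it (0.59). The difference stayed positive but was not called when DMSO 2 (0.77), EB 1 (0.67), EB 2 (0.75) or EB 3 (0.75) was left out, nor after a trend on transcript length and GC content was removed from each library (0.44).

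**Figure D2:**
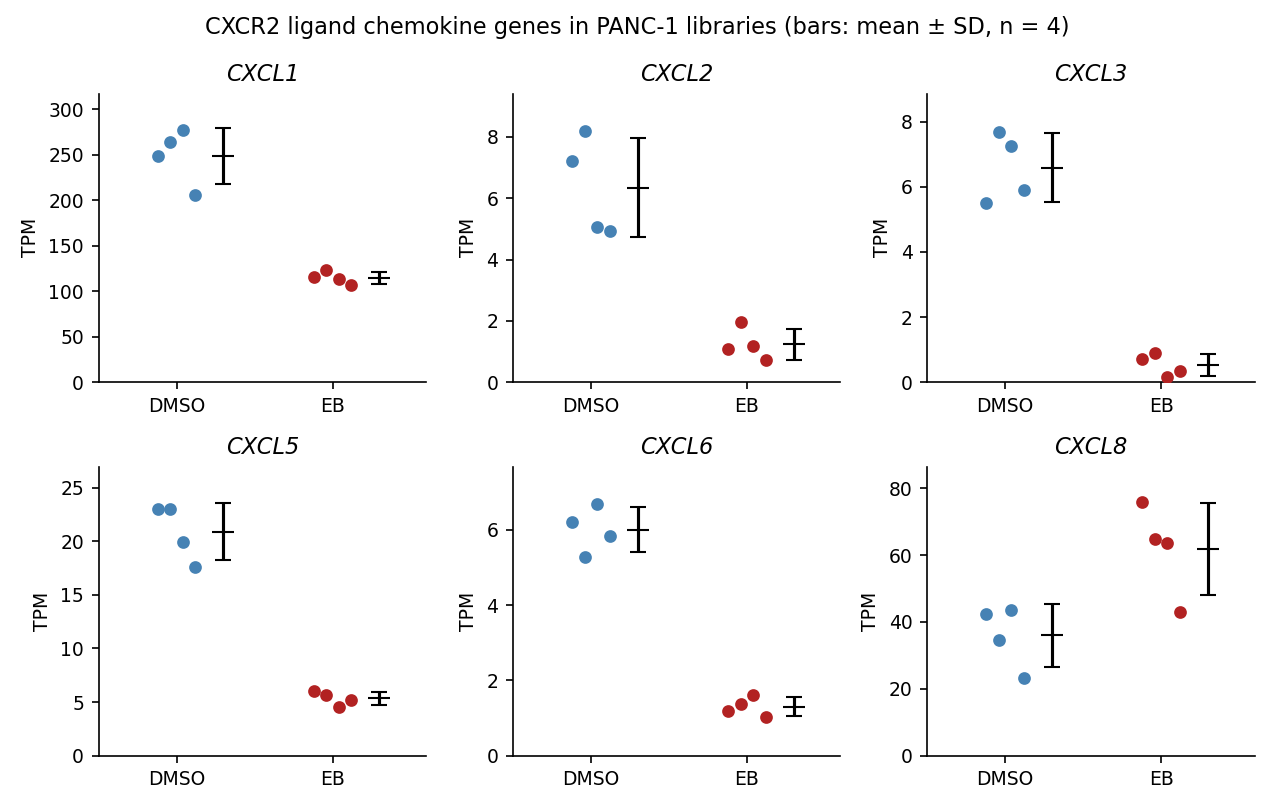
TPM of each CXCR2 ligand gene in the 4 DMSO (blue) and 4 EB (red) libraries, with the mean and SD as bars and an axis from 0 in each panel. The EB points lie below all DMSO points in 5 panels, and in the CXCL8 panel they lie higher, with EB 4 at 43.1 TPM beside DMSO 3 at 43.5 TPM.

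All 6 genes passed the filter of at least 1 TPM in at least 4 libraries. At a Benjamini-Hochberg adjusted p under 0.05 in limma, 5 of them were called lower, where 25.1% of the 11725 genes tested were, and 1 was called higher, where 15.2% were. In 5 all EB libraries lay below all DMSO libraries, as in 20.3% of genes tested. Their median log2 fold change was −1.67, and that of all genes −0.11. Since the genes were chosen on this contrast, nothing further is drawn from these counts.

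The summed TPM of all 6 genes was 332.8, 342.8, 359.7 and 263.3 with DMSO and 200.6, 197.7, 184.2 and 157.7 with EB. The sum was lower in every EB library than in any DMSO library. It went from 324.7 ± 42.4 to 185.0 ± 19.6 TPM (n = 4 each), a log2 difference of −0.80. Without CXCL8 the sum of the other 5 went from 288.7 ± 34.2 to 123.2 ± 7.71 TPM (log2 difference −1.22).

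Sums over close relatives depend less on how reads were split between them, although TPM are divided by length and the transcripts differ in it. CXCL1, CXCL2 and CXCL3 together went from 261.8 ± 32.3 to 116.5 ± 7.27 TPM, a log2 difference of −1.15. CXCL5 and CXCL6 together went from 26.9 ± 2.57 to 6.63 ± 0.561 TPM, a log2 difference of −1.87. The first sum is nearly all CXCL1, so it says little about CXCL2 and CXCL3.

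The make-up of the ligand transcripts differed between the groups. CXCL8 was 12.7%, 10.1%, 12.1% and 8.85% of the summed TPM in the DMSO libraries and 37.8%, 32.8%, 34.6% and 27.3% in the EB libraries. CXCL1 remained the largest part, at 76.7 ± 1.46% with DMSO and 62.3 ± 4.30% with EB. The other 4 genes each took a smaller share in every EB library than in any DMSO library, such as 6.46% against 2.90% for CXCL5 and 2.04% against 0.283% for CXCL3.

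**Figure D3:**
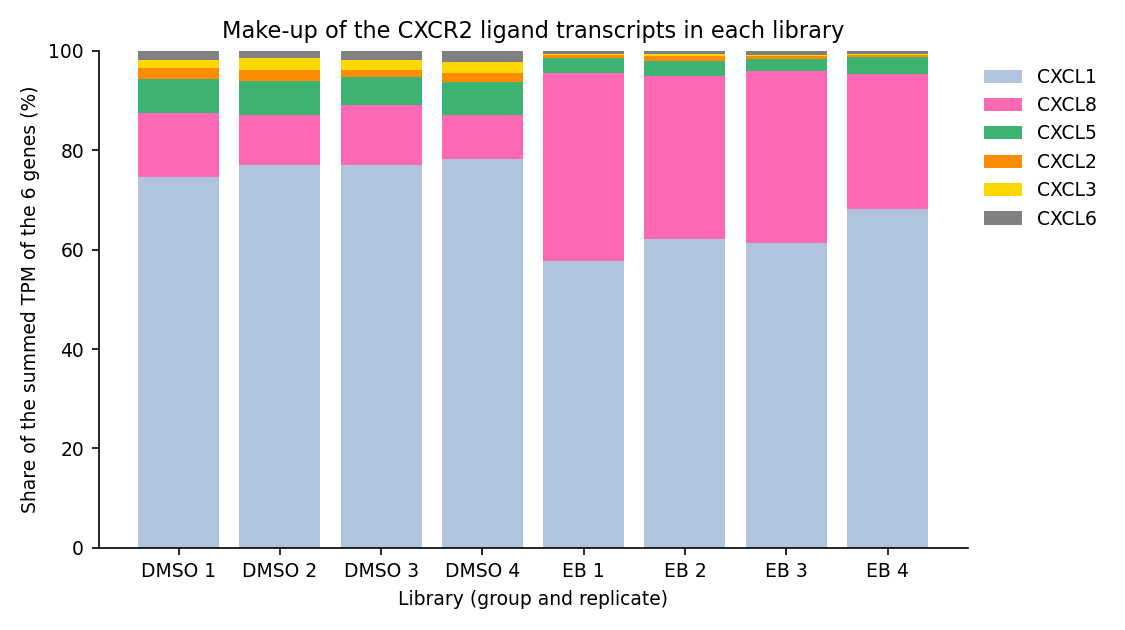
Share of each gene in the summed TPM of the 6 CXCR2 ligand genes, in percent, with 1 bar per library. CXCL8 (pink) takes 8.85% to 12.7% of the bar in the DMSO libraries and 27.3% to 37.8% in the EB libraries.

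Ratios within a library are free of any scaling between libraries. The TPM ratio of CXCL8 to CXCL1 was 0.113 to 0.170 with DMSO and 0.401 to 0.655 with EB, with means of 0.143 ± 0.0256 and 0.537 ± 0.105. The ratio of CXCL1 to the sum of CXCL2 and CXCL3 went from 19.4 ± 2.42 to 72.9 ± 24.5, and that of CXCL1 to CXCL5 from 12 ± 1.36 to 21.7 ± 2.37, also without overlap. The ratio of CXCL5 to CXCL6 was 3.51 ± 0.652 with DMSO and 4.27 ± 1.05 with EB, and its groups overlapped.

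In both groups the order of the levels in TPM began with CXCL1, then CXCL8, then CXCL5, each apart from the next in all libraries of the group. Among all genes CXCL1 ranked 453 with DMSO and 1280 with EB by mean TPM, and CXCL8 ranked 3703 and 2336. CXCL3, CXCL2 and CXCL6 followed, and neighbours in that order overlapped in both groups. With EB the last place was taken by CXCL3.

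Over the 8 libraries, log2(TPM + 1) of the 5 lower genes was correlated at r = 0.94 to 0.99 in their 10 pairs, and CXCL8 with each of these at r = −0.71 to −0.64. The split into groups sets most of this. After the group means were subtracted, the pairs with CXCL8 had r = 0.32 to 0.80 and the other pairs −0.35 to 0.61. Both genes of a pair share the 8 libraries and their scaling.

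The libraries also differed in their mitochondrial share, both within and between the groups, and whether EB had a part in this was not tested. The 13 mitochondrial genes took 17.0% to 39.0% of TPM with DMSO, highest in DMSO 4, and 11.6% to 20.3% with EB. DMSO 4 was also the lowest DMSO library for CXCL1, CXCL2, CXCL5 and CXCL8. Without it the log2 fold changes were −1.19 for CXCL1, −1.82 for CXCL2, −2.36 for CXCL3, −1.86 for CXCL5, −1.62 for CXCL6 and 0.59 for CXCL8. Of all calls 37.7% were higher as deposited, 51.2% after median-ratio scaling, 50.2% after quantile normalization and 22.7% after the mitochondrial genes were removed, and the median over all genes was then −0.11, 0.01, 0.02 and −0.28. The directions of the 6 genes were the same under each. Depth is unknown, since TPM keep no read totals, so no counting interval can be given.

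The fold changes also differed with transcript length. CXCL1, CXCL2 and CXCL3 have annotated transcripts of 1174, 1115 and 1075 bases and are among the 1169 shortest tested genes, up to 1225 bases, of which 6.93% were lower and 42.5% higher with EB (median log2 fold change 0.41). CXCL6 (1537 bases) and CXCL8 (1642 bases) belong to the next 1168, up to 1742 bases, with 10.0% lower and 31.9% higher (median 0.24). CXCL5 (2436 bases) lies in a class of 2195 to 2673 bases, with 15.3% lower and 15.4% higher. CXCL1, CXCL2, CXCL3 and CXCL6 were lower where more genes of their length were higher, CXCL8 went with its class, and the class of CXCL5 had about as many lower as higher genes. With the length and GC trend removed, CXCL1 was at −1.50, CXCL2 at −2.13, CXCL3 at −2.74, CXCL5 at −1.92 and CXCL6 at −1.94.

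Cell type markers were checked beside these values. KRT8, KRT18, KRT19 and SOX9 were expressed, as epithelial cells of ductal origin do, whereas KRT7, EPCAM and CDH1 were near 0. By limma the keratins were upregulated with EB (log2 fold change of KRT19 1.80, KRT18 1.49 and KRT8 1.20) and SOX9 was downregulated (−1.38). Of 10 leukocyte markers, 8 were listed at 0 throughout, PTPRC and CSF3R among them, and their summed TPM was 0.816 to 1.91 with DMSO and 0.581 to 1.49 with EB. Fibroblast markers summed to 64.0 to 91.8 TPM with DMSO and 38.8 to 50.5 with EB, mostly COL1A2 (−0.83), while DCN and LUM were at 0. Endothelial markers summed to at most 0.305 TPM. The part of these differences in the chemokine values was not tested.

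The receptors of the ligands were not seen in these cells. CXCR1 and CXCR2 were listed at 0 in all 8 libraries, as was ACKR1, an atypical receptor that takes up several of the ligands. Of 11 chemokine receptors 1 was tested, ACKR3, a scavenger of CXCL12. It was lower with EB, from 6.45 ± 0.575 to 2.26 ± 0.425 TPM (log2 fold change −1.20, SE 0.13, limma adjusted p = 0.00027).

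Other chemokines were mostly silent. Of 21, 13 were listed at 0 throughout, among them PPBP, a further CXCR2 ligand of platelets, and PF4V1. PF4 was at 0.264 ± 0.196 TPM with DMSO and 0.456 ± 0.415 with EB and was not tested. These 3 genes lie inside the cluster, between the expressed ligands. Of 3 tested, CX3CL1, the membrane-bound chemokine fractalkine, was lower (1.48 to 0.173 TPM, log2 fold change −1.08, limma adjusted p = 0.00018). It was below 1 TPM in every EB library and passed the filter through the DMSO libraries, so its adjusted p is a description only. CXCL16 (−0.03, adjusted p = 0.89) and CCL2 (0.10, adjusted p = 0.67), named after their values were seen, were not called.

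The surroundings of the cluster were compared because they were not used to choose the genes. Within 1000000 bases on either side and inside the cluster the table has 15 other genes, of which 7 were tested. By limma 5 were lower with EB, 0 were higher (1 at an unadjusted p under 0.05), and 2 were not called, where 25.1% of all genes tested were lower and 15.2% higher. AREG and EREG, which encode ligands of the EGF receptor, lie beyond CXCL2 and are also highly expressed. AREG went from 123.4 ± 4.87 to 67.8 ± 3.22 TPM (log2 fold change −0.86, adjusted p = 0.00046) and EREG from 64.8 ± 7.47 to 34.6 ± 2.26 TPM (−0.88, adjusted p = 0.00085). BTC, which encodes another EGF receptor ligand, fell from 13.5 to 4.63 TPM (−1.39, adjusted p = 0.00037).

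On the CXCL8 side, ANKRD17, an ankyrin repeat protein gene, changed by −1.39 (adjusted p = 0.00073) and COX18, a mitochondrial assembly factor gene, by −1.31 (adjusted p = 0.0035). MTHFD2L, a mitochondrial folate enzyme gene beside CXCL2, had a value of 0.67 (adjusted p = 0.090), and PARM1 −0.16 (adjusted p = 0.31). MTHFD2L was called higher without DMSO 1 (0.93), after quantile normalization (0.95) and with the replicate number as a block (0.67), and PARM1 lower with mitochondrial genes removed (−0.34). No tested gene between COX18 and CXCL2 other than CXCL8 had a positive value.

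**Figure D4:**
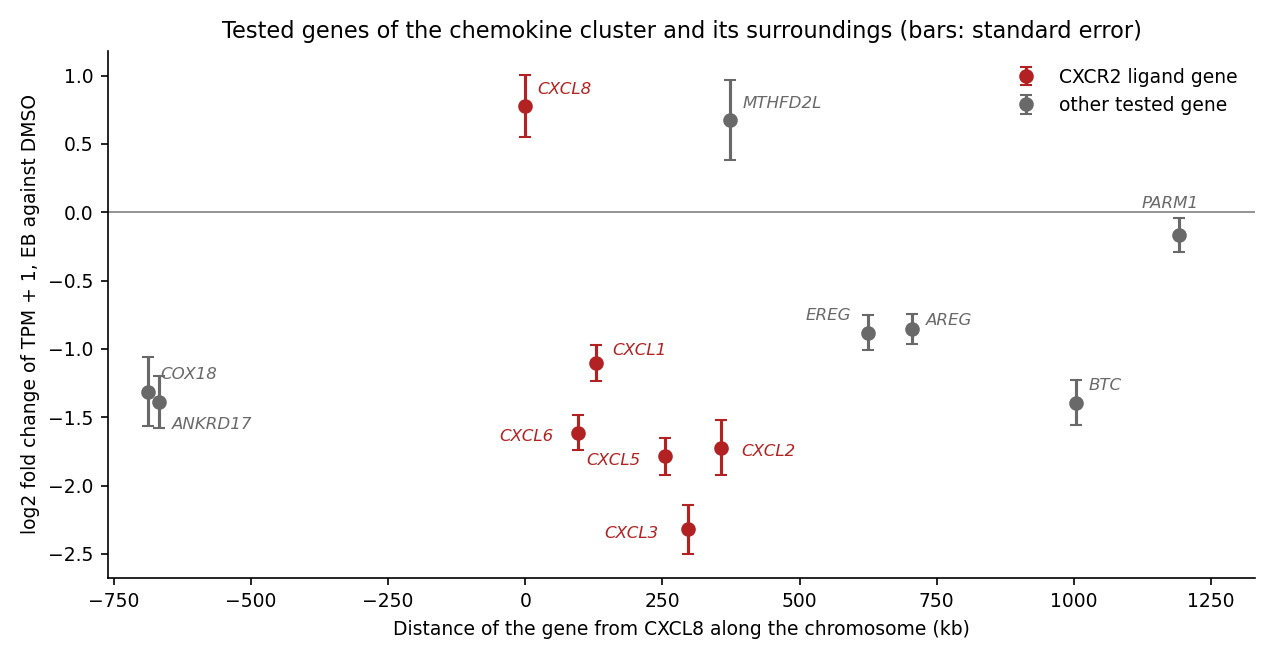
Log2 fold change (EB against DMSO, of TPM + 1) of each tested gene against its distance from CXCL8 in kb, with standard errors as bars. The CXCR2 ligand genes (red) reach down to −2.32 at CXCL3, CXCL8 stands at 0.78, and of the other genes (grey) 5 lie between −1.39 and −0.86.

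Genes upstream of the chemokines were taken from lists of inducers, transcription factors and decay factors, and their counts can be read beside those of all genes (25.1% lower, 15.2% higher, median −0.11). Of 32 inducing cytokines, receptors and adaptors 20 were tested, 7 were lower by limma, 0 were higher (also 0 at an unadjusted p under 0.05) and 13 were not called, with a median log2 fold change of −0.24. Under other settings 5 to 13 of the list were lower and 0 to 3 higher. LTB, which encodes lymphotoxin β, had the largest fall, from 4.42 ± 1.69 to 0.0776 ± 0.086 TPM (−2.29, limma adjusted p = 6.8e-05). Every EB library of LTB was below 1 TPM, so it passed the filter through the DMSO libraries and its adjusted p is a description only. TAB3 (−0.78) and TAB2 (−0.74), adaptors of the kinase TAK1, and the TNF receptor gene TNFRSF1B (−0.61) were also lower, the last not after quantile normalization (−0.29). TNF itself, named after its value was seen, was at 1.34 TPM with DMSO and 0.057 with EB and was not tested.

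Of 16 NF-κB subunits, kinases and inhibitors, all tested, 10 were lower with EB and 2 higher, with a median of −0.58. The 4 with the largest differences were TNFAIP3 (−2.76, adjusted p = 1.0e-04), NFKBIZ (−2.51, adjusted p = 4.8e-05), NFKBIA (−1.37, adjusted p = 0.0002) and the subunit gene REL (−1.20, adjusted p = 0.00093). TNFAIP3 (A20) and NFKBIA (IκBα) are inhibitors of NF-κB that are themselves its targets, and NFKBIZ encodes a nuclear cofactor needed for many secondary NF-κB genes. NFKBIA went from 167 ± 17.8 to 64.4 ± 10.1 TPM. RELA, named after its value was seen, encodes the main activating subunit and was at 69.6 ± 11.5 TPM with DMSO and 76.5 ± 10.8 with EB (0.14, adjusted p = 0.50).

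The AP-1 and C/EBP factors went mostly the other way. Of 13 tested, 7 were higher with EB and 2 lower, with a median of 0.82. The higher genes include FOSB, named after its values were seen. It was below 1 TPM in every DMSO library and passed the filter through the EB libraries, so its call is a description only. FOSL1, an AP-1 subunit, went from 85.6 ± 8.65 to 397 ± 84.9 TPM (2.18, limma adjusted p = 3.9e-05), and CEBPB, a C/EBP activator, from 40.8 ± 7.29 to 119 ± 6.28 TPM (1.54, adjusted p = 0.00014). CEBPD (−1.63, adjusted p = 0.00051) and ATF2 (−1.42, adjusted p = 0.0037) were the lower ones.

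Chemokine messages carry AU-rich elements, and regulators of mRNA decay, only some of which read such elements, form the third list. Of 17 tested, 5 were lower, 1 was higher and 11 were not called, with a median of −0.32. The lower genes include ZC3H12C, named after its values were seen. It was below 1 TPM in every EB library and passed the filter through the DMSO libraries, so its call is a description only. ZFP36L2, a relative of the decay factor tristetraprolin, changed by −1.17, and ZC3H12A (regnase 1), an RNase gene, went from 21.1 ± 3.68 to 9.95 ± 0.541 TPM. CNOT1, the scaffold of the deadenylase complex, changed by −0.83, and TIA1 by −0.63, and neither was called after the length and GC trend was removed (−0.43 and −0.45).

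Among 22 other inflammatory genes, 21 were in the table, 8 of these were listed at 0 and 9 were tested. By limma 6 were lower and 1 was higher, with a median of −0.90. The lower genes include LCN2, named after its values were seen. It was below 1 TPM in every EB library and passed the filter through the DMSO libraries, so its call is a description only. TNFAIP2 changed by −2.52, the apoptosis inhibitor BIRC3 by −1.67 and the cytokine IL32 by −1.49. CSF3, which encodes the neutrophil growth factor G-CSF, was the higher one, from 35.2 ± 13.5 to 127 ± 12.3 TPM (1.90, adjusted p = 0.00057).

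**Figure D5:**
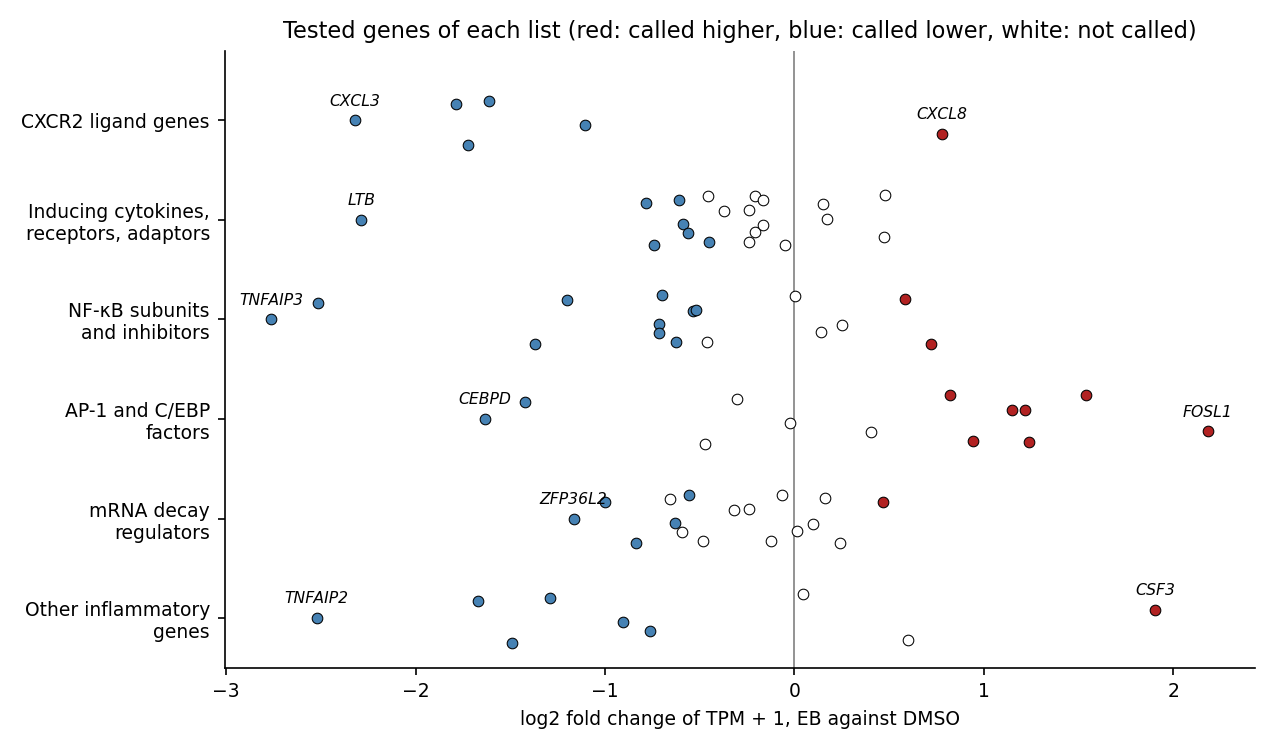
Log2 fold change (EB against DMSO, of TPM + 1) of each tested gene, with 1 row of points per list, red for genes called higher, blue for lower and white for neither by limma. CXCL8 (0.78) is set apart from the other CXCR2 ligands. The AP-1 and C/EBP row has 7 genes higher and 2 lower, and the NF-κB row 2 higher and 10 lower. FOSB passed the filter through the EB libraries, and CXCL3, LTB, ZC3H12C and LCN2 passed it through the DMSO libraries. Of all genes tested 15.2% were higher and 25.1% lower. A link between the rows was not tested.

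The genes whose pattern over the 8 libraries was most like the summed chemokine TPM were SFMBT2 (r = 0.998), SLC5A3 (0.997), CAVIN2 (0.997), MYCBP2 (0.996) and ABTB2 (0.996). Their log2 fold changes were −0.58, −1.11, −1.79, −0.68 and −1.36, and SFMBT2 (−0.19) and MYCBP2 (−0.25) were not called once the length and GC trend was removed. SFMBT2 was below 1 TPM in every EB library and passed the filter through the DMSO libraries. The sum is mostly CXCL1, and the group difference and the low DMSO 4 shape all of these values.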

How the data were processed

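The authors deposited 1 table of TPM for 8 PANC-1 libraries, computed within each library. Their methods name CLC Genomics Workbench for mapping and counting, HISAT2 and StringTie among further tools, and both GrCM38 and hg38 as the genome. The identifiers are human. Which step made the TPM is not given in the sources used here, and depth is unknown. Symbols of 20148 of 20263 genes, positions and transcripts came from GENCODE release 44, and promoters from RefSeq.

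TPM were used on the log2 scale with a pseudocount of 1. The 11725 genes with at least 1 TPM in at least 4 libraries were fitted with limma 3.58.1 in R 4.3.3 (lmFit, eBayes, no block), with Benjamini-Hochberg adjustment over all. A gene was called at an adjusted p under 0.05. Steps were tested on simulated data. Tables and promoters were handled in Python 3.11.15 with pandas 2.3.3 and Biopython 1.88.

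The members and lists were chosen with earlier results of these data known. Named were all 6 chemokines, PPBP, PF4, PF4V1, CXCR1 and CXCR2, of each other list at most the 4 called genes with the largest absolute log2 fold change, all tested neighbours of the cluster and the 5 genes most correlated with the summed TPM. Alternatives were a pseudocount of 0.1, no filter, at least 5 TPM, median-ratio and quantile scaling, mitochondrial genes removed, a length and GC trend removed, an intensity trend, a replicate block, each library left out, and the paralogs summed. A planned comparison of proteins was not made.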

Additional observations from a re-analysis of the deposited data

Results flagged for a closer look

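A library was set apart from the other 3 of its group, by a gap above Dixon's 95% critical share of the group's range, in 5 of the 100 groups of values examined, and chance gives about 1 in 20. In 4 of the 5 this was DMSO 4, the library with the highest mitochondrial share. Its TPM was 13.5 for ABTB2 (others 23.2 to 23.9), 123.6 for CNOT1 (others 185.4 to 187.9), 342.0 for KRT18 (others 413.3 to 424.7) and 513.7 for KRT8 (others 808.3 to 877.4). In DMSO 1, IL32 was at 5.05 TPM, against 8.65 to 9.25 in the others. None of the 6 chemokines and none of their sums was set apart in this way.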

How the results depend on the processing

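CXCL1, CXCL2, CXCL3, CXCL5 and CXCL6 kept their direction and their call in the 16 to 18 alternatives that gave a value, with log2 fold changes of −1.50 to −0.97, −2.32 to −1.45, −3.56 to −2.12, −1.99 to −1.57 and −2.14 to −1.33. CXCL8 was positive in all 18 (0.44 to 0.94; 0.59 to 0.94 with 1 library left out) and lost its call in 5: the length and GC trend removed (0.44) and 4 of the 8 left-out libraries. The log2 difference of the summed TPM of all 6 was −0.99 with mitochondrial genes removed and −1.18 with the length and GC trend removed (−0.90 to −0.73 with 1 library left out). That of CXCL1, CXCL2 and CXCL3 was −1.33 after quantile normalization, −1.34 and −1.56 (−1.24 to −1.10). Genes called higher numbered 1785, but 3146 after median-ratio scaling and 2782 after quantile normalization (1270 to 1826 with 1 library left out), and genes called lower 2944, but 4954 with mitochondrial genes removed (2073 to 4333). The cause of these shifts was not tested. Of 713 values for 40 other named genes, 703 kept direction and side of the threshold, 6 lost the call, 4 gained it and 0 reversed. List counts of lower and higher genes ranged over 5 to 11 and 1 to 3 for NF-κB, 2 to 4 and 4 to 8 for AP-1 and C/EBP, 2 to 8 and 0 to 2 for mRNA decay and 4 to 7 and 1 to 2 for the other inflammatory genes. With at least 5 TPM, CXCL2 was not tested, and with CXCL1, CXCL2 and CXCL3 summed into 1 value neither CXCL2 nor CXCL3 had a value of its own, and the CXCL1 range above includes that sum (−1.15).

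With the replicate number as a block, 2231 genes were called higher and 3525 lower, and CXCL8 kept 0.78. Same-numbered libraries had deviations from the group means correlated at 0.18, 0.046, −0.088 and 0.28, and libraries of any number at −0.24 to 0.28. In 2 of 4 the best match was the same number. These values do not settle whether the numbers mark pairs, and the main fit used no block.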
